A study of Mus musculus with 6 samples.

Results

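The genes described here make DNA and the nucleotides it is built from. They are 42 protein-coding genes of origin licensing, the replication fork, deoxynucleotide supply and the chromatin laid down behind the fork, matched by symbol among 23420 gene rows. All 42 were found, and all 42 passed the filter on low counts. RNA of freshly isolated mouse splenic dendritic cells, which take up and present antigen, was sequenced as 3 TBK1-DKO and 3 wild-type (WT) libraries, named by their labels. The comparison asks which transcripts differ between the labelled genotypes. TBK1 is a kinase that carries signals from nucleic acid sensors to interferon regulatory factors. Both groups are C57BL/6 mice, and for both the labels give the age as 8 weeks in one field and 10 weeks in another. What DKO stands for is not stated in the labels, and neither are the alleles, any driver of a deletion, the sorting of the cells or the number of animals behind each library. P-values therefore measure the spread between these libraries, which may be technical.

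Eukaryotic DNA replication starts at origins that are licensed before S phase: the origin recognition complex, CDC6 and CDT1 load the ring-shaped MCM helicase onto DNA. In S phase CDC45 and the GINS complex switch the helicase on, primase and DNA polymerases copy the strands, and the sliding clamp PCNA, set on DNA by the RFC clamp loader, holds the polymerases in place. Ribonucleotide reductase and the thymidylate enzymes supply the building blocks, and E2F transcription factors are known to drive many of these genes as cells enter S phase. Splenic conventional dendritic cells are largely non-dividing or slowly dividing, whereas their progenitors, erythroblasts, myeloid precursors and plasmablasts divide quickly.

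Most promoters of the origin licensing genes held an E2F-type motif, and the stretches that hold it are shown because all licensing genes were called higher in TBK1-DKO, beside those of genes that hold it and were not called. RefSeq promoter windows (GRCm38.p6, 250 bases before to 50 bases after a start site) matched 35 of the 42 genes, all but Gins1, Gins2, Gins4, Mcm4, Pole, Prim2 and Rfc2. The motif was searched on both strands as TTTGGCGC, TTTGCCGC, TTTCGCGC or TTTCCCGC, so that 1 match can overlap another on the opposite strand. It was in 7 of 9 licensing genes and in 13 of 35 genes overall (37.1%), against 2.26% of all 32851 windows of the same length and 4.46% of the 10610 tested genes with a window. Each stretch below has 30 bases in the direction of the gene, 5′ to 3′, with the motif in capitals. For genes called higher in TBK1-DKO they are
Orc1, chr4:108579416-108579445, plus strand: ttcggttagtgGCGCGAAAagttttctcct
Cdc6, chr11:98908002-98908031, plus strand: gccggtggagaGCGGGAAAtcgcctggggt
Cdt1, chr8:122568035-122568064, plus strand: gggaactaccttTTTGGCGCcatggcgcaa
Mcm3, chr1:20820265-20820294, minus strand: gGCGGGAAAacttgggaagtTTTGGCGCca
Mcm5, chr8:75109347-75109376, plus strand: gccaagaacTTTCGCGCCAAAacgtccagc
Mcm6, chr1:128359795-128359824, minus strand: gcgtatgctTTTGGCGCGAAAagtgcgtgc
Mcm7, chr5:138172030-138172059, minus strand: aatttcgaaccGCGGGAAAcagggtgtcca
For genes not called they are
Pola1, chrX:93632275-93632304, minus strand: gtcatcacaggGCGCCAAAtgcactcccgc
Pold1, chr7:44548766-44548795, minus strand: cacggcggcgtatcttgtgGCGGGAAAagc
Rfc3, chr5:151651195-151651224, minus strand: gcacgcTTTCGCGCtcGCGGGAAAactcta
In Mcm5 and Mcm6 the capitals are 2 matches on opposite strands that overlap. Mcm6 and Mcm7 each had a further match elsewhere in their windows, and Gins3, Lig1 and Uhrf1 also held the motif.

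Among genes with a window, the E2F-type motif was in 10 of 26 called higher and in 3 of 9 not called. None of the 5 nucleotide synthesis genes held it, although Rrm2 had the largest fold change of the 42. The 250 bases before the RefSeq start of Rrm2 are shown for contrast, with a CCAAT box, the pentamer bound by the factor NF-Y, in capitals.
Rrm2, chr12:24708004-24708253, plus strand: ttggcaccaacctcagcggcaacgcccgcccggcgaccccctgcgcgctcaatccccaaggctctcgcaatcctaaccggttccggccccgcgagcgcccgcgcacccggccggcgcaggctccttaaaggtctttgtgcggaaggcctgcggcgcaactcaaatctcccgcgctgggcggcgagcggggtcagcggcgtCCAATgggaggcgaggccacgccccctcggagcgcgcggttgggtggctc
A CCAAT box (CCAAT, both strands) was in 22 of the 35 genes with a window, against 41.1% of all genes with a window and 42.5% of the tested ones. The CHR motif TTTGAA, known from promoters of mitotic genes and also searched on both strands, was in 4 of the 35 replication genes, in 16 of 21 genes of a list of mitotic genes, in 20.2% of all genes with a window and in 14.4% of the tested ones. The E2F-type motif was in 1 of those 21 mitotic genes. These are matches of letters within the window and were not tested as binding sites.

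Reads in genes numbered 45018389 to 47349648 per library in TBK1-DKO and 31077585 to 36145508 in WT, a depth 1.37 times higher on average. Levels are given as counts per 1000000 reads (CPM), scaled by TMM factors of 0.996 to 1.01. Each of the 42 genes had at least 299 reads in every library, and together they took 0.366% to 0.381% of gene reads in TBK1-DKO and 0.283% to 0.295% in WT. TBK1-DKO 2 and WT 1 stood apart from the other libraries of their groups: the chi-square of counts per degree of freedom was 38.3 between TBK1-DKO 2 and either partner, against 2.47 between TBK1-DKO 1 and 3, and 13.0 to 14.5 for WT 1, against 2.62 between WT 2 and 3. Tbk1 was at 82.3 ± 2.69 CPM in TBK1-DKO and 85.0 ± 5.08 in WT (SD, n = 3) and was not called, so its level does not check the labels and groups are named as labelled.

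Replication genes were higher as a group in TBK1-DKO, by modest amounts. Of the 42, 31 rose, 0 fell and 11 were not called at an adjusted p under 0.05 (edgeR quasi-likelihood test, Benjamini-Hochberg adjustment over 14388 genes). Of all genes tested, 13.7% were called higher and 9.9% lower, 23.6% in all. With length and GC offsets, 2467 genes were called higher and 2742 lower, against 1978 and 1424 without them, and 37 of the 42 were called higher, with Gins4, Pola1, Pola2, Pold1, Pcna and Rfc4 added. At an unadjusted p under 0.05, 37 of the 42 were higher and 0 lower, and DESeq2 called 30 higher and 0 lower. The median log2 fold change, TBK1-DKO over WT, was 0.41 over the 42 genes and 0.00 over all genes tested. In 37 of the 42, every TBK1-DKO library lay above every WT library, which held for 21.5% of all genes tested, and in 0 of the 42 every TBK1-DKO library lay below, which held for 19.5%.

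**Figure D1:**
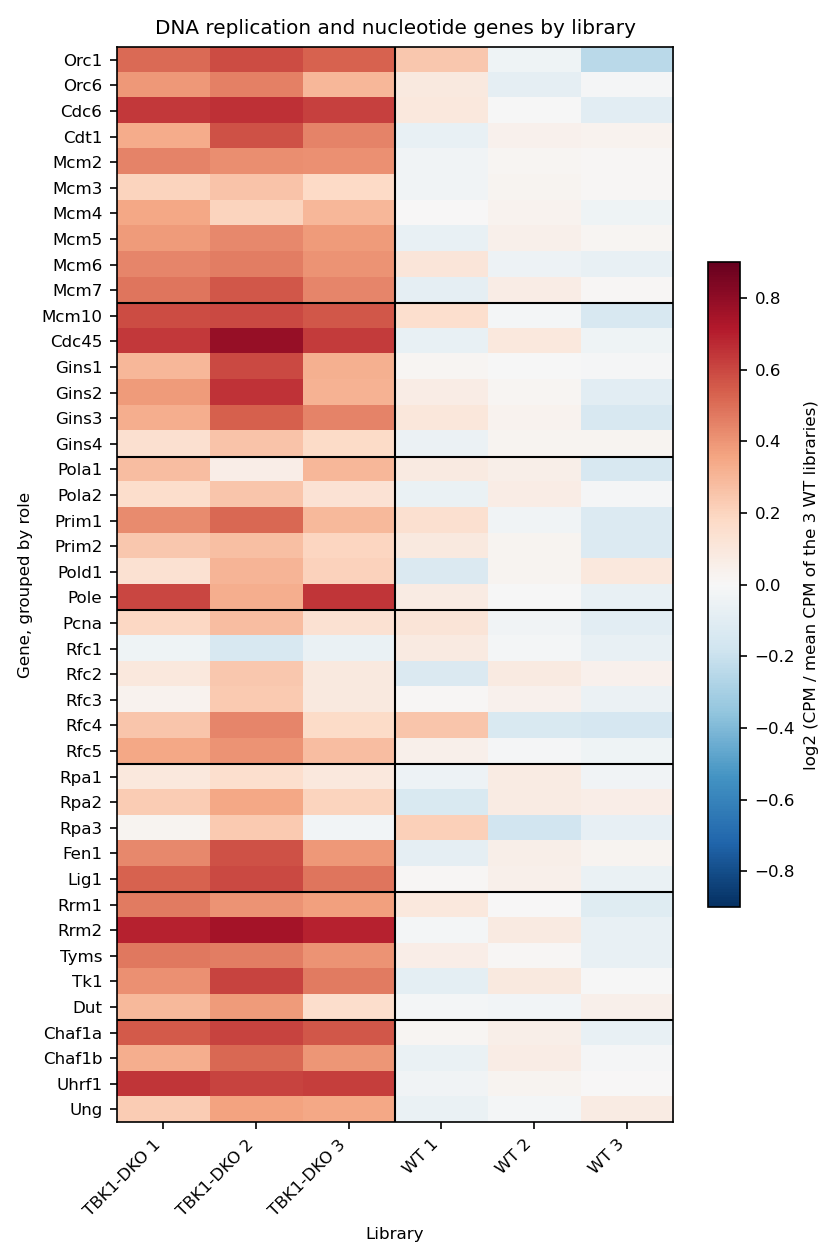
Colour map of log2 CPM of each gene in each library relative to the mean of the 3 WT libraries, with genes in rows by role and black lines between roles. Red cells fill the 3 TBK1-DKO columns for most genes, deepest in Cdc45 of TBK1-DKO 2 and pale in the clamp loader rows. Rfc1 is the only row that is blue in all of these columns.

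**Figure D2:**
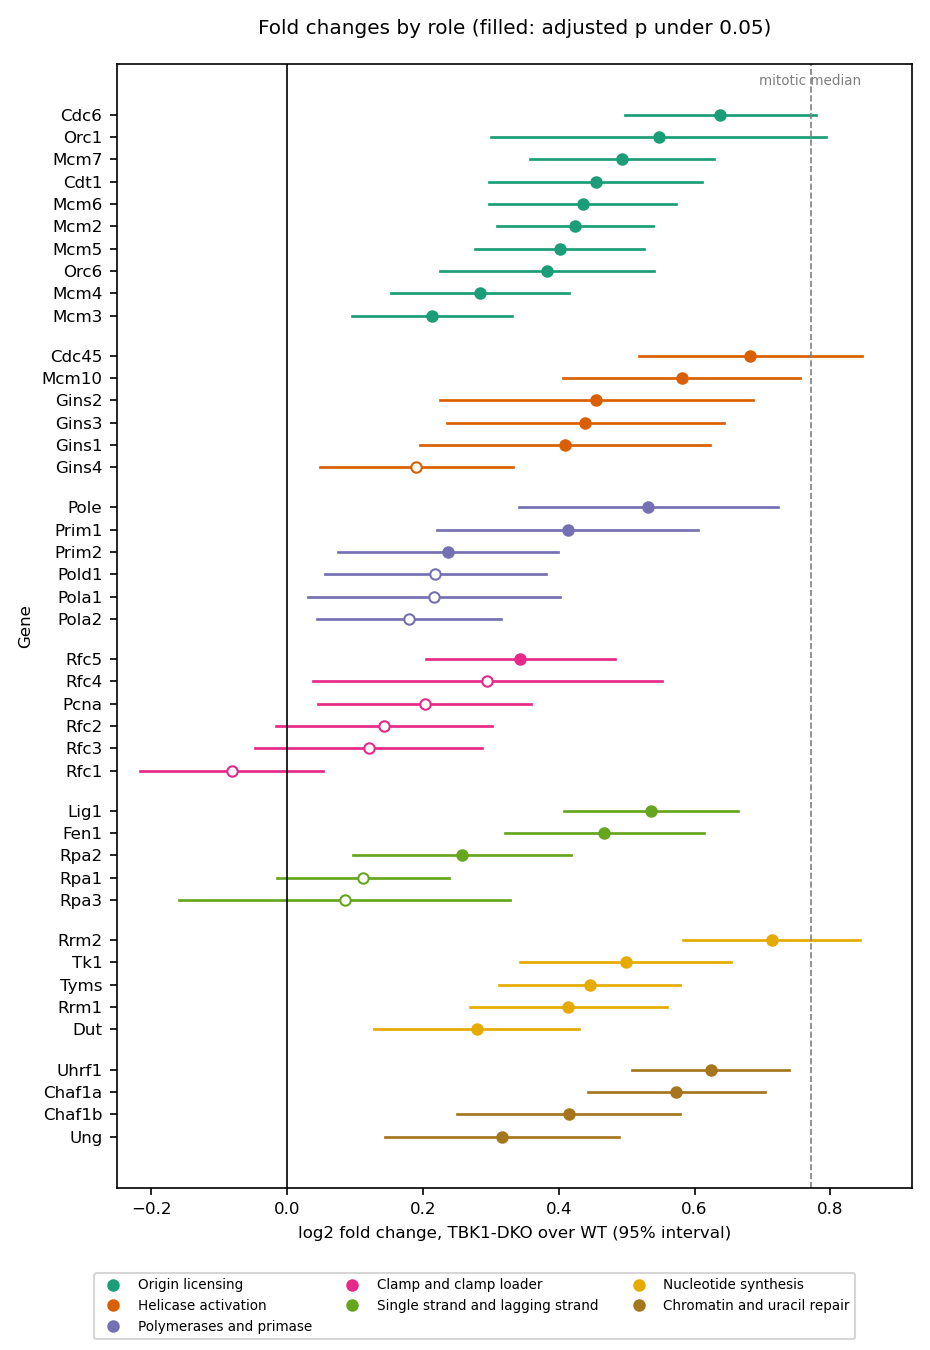
Log2 fold change of each of the 42 genes (points, with 95% intervals as lines), coloured by role, filled where the adjusted p was under 0.05. All 10 licensing genes and all 5 nucleotide synthesis genes are filled, 1 of 6 clamp and clamp loader genes is, and the dashed line marks the median of a list of mitotic genes at 0.77.

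All 10 origin licensing genes rose, with log2 fold changes of 0.21 (Mcm3) to 0.64 (Cdc6) and a median of 0.43. Cdc6 encodes the ATPase that joins the origin recognition complex to load the helicase. It lies on chromosome 11 (98907801 to 98923940, plus strand, GENCODE M21 on GRCm38), with 14 exons after merging those of all its transcripts. It was at 57.8, 58.5 and 56.9 CPM in TBK1-DKO 1, 2 and 3, against 39.6, 37.1 and 34.7 in WT 1, 2 and 3. The TBK1-DKO libraries were nearly level and all lay well above WT. Mean levels of 57.7 ± 0.817 and 37.1 ± 2.42 CPM (SD, n = 3) gave a rise of 0.64 on the log2 scale (SE 0.06, adjusted p = 6.5e-05, edgeR quasi-likelihood test). Orc1, the largest subunit of the origin recognition complex, was at 16.7, 17.6 and 16.9 CPM in TBK1-DKO, against 13.8, 11.4 and 9.87 in WT. Its WT values were the more spread, with WT 1 highest, and its log2 fold change was 0.55 (SE 0.11, adjusted p = 0.005). Orc6, the smallest subunit, rose by 0.38 (SE 0.07), and Cdt1, which brings the helicase to the origin and is destroyed once S phase begins, rose by 0.45 (SE 0.07).

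The 6 subunits of the MCM2-7 ring, which assemble in equal numbers, all rose. Mcm7 was at 219, 231 and 213 CPM in TBK1-DKO 1, 2 and 3, against 149, 164 and 158 in WT 1, 2 and 3. Mcm5 was at 206, 213 and 205 CPM in TBK1-DKO, against 150.05, 163 and 159 in WT. In both genes the groups were far apart, and TBK1-DKO 2 was highest. The log2 fold changes were 0.49 (SE 0.06) for Mcm7, 0.44 (SE 0.06) for Mcm6, 0.42 (SE 0.05) for Mcm2, 0.40 (SE 0.06) for Mcm5, 0.28 (SE 0.06) for Mcm4 and 0.21 (SE 0.05) for Mcm3. Exons of Cops6, Ap4m1, Mir25 and Mir93 overlap 12.6% of the Mcm7 exon bases. The Mcm3 call was lost without TBK1-DKO 1, WT 2 or WT 3, with adjusted p = 0.056, 0.083 and 0.075 by edgeR.

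Of the 6 genes that activate the helicase, 5 rose, with a median log2 fold change of 0.45. Cdc45, the partner that stays with the active helicase (chromosome 16, 18780447 to 18811987, minus strand), was at 35.01, 38.9 and 34.9 CPM in TBK1-DKO, against 21.6, 24.1 and 22.01 in WT. Mcm10, which completes activation, was at 38.1, 38.2 and 37.2 CPM in TBK1-DKO, against 28.1, 25.02 and 22.9 in WT. Neither gene had overlapping groups. Cdc45 rose by 0.68 (SE 0.07, adjusted p = 0.0001, edgeR quasi-likelihood test) and Mcm10 by 0.58 (SE 0.08). Of the 4 GINS subunits, Gins2 (0.46, SE 0.10), Gins3 (0.44, SE 0.09) and Gins1 (0.41, SE 0.10) rose. Gins4 was measured at 30.1, 32.6 and 30.7 CPM in TBK1-DKO against 26.3, 27.7 and 27.8 CPM in WT, with no overlap, but was not called (0.19, SE 0.06, 95% interval 0.05 to 0.33, adjusted p = 0.055 by edgeR). The calls of Gins1 were lost without WT 2 or WT 3 (adjusted p = 0.061 and 0.056) and that of Gins2 without WT 3 (adjusted p = 0.059, edgeR). Exons of Gse1 overlap 67.3% of the Gins2 exon bases, so reads there could be left out or shared.

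Among the polymerase and primase genes, 3 of 6 rose. Pole, the catalytic subunit of the leading-strand polymerase epsilon, was at 66.7, 55.2 and 68.8 CPM in TBK1-DKO, against 46.2, 43.8 and 41.9 in WT. It rose by 0.53 (SE 0.09, adjusted p = 0.001, edgeR quasi-likelihood test), and TBK1-DKO 2 was the lowest of its group. Pold1, the catalytic subunit of the lagging-strand polymerase delta, was at 105, 118 and 109.9 CPM in TBK1-DKO, against 86.8, 97.0 and 102 in WT. Its groups lay close, and it was not called (0.22, SE 0.07, 95% interval 0.06 to 0.38, adjusted p = 0.055 by edgeR). With length and GC offsets it was called (0.11, adjusted p = 0.040 by edgeR). It was also called in TBK1-DKO 1 and 3 against WT 2 and 3 (0.10, adjusted p = 0.014 by edgeR). The libraries of that last setting were chosen from these data as the most alike of their groups, so its p-value understates the spread. Both fold changes were smaller than the 0.22 above. The ratio of Pold1 to Pole CPM was 1.77 ± 0.318 in TBK1-DKO and 2.17 ± 0.278 in WT (SD, n = 3). Its groups overlapped (two-sided exact permutation p = 0.2, where 0.1 is the smallest that 3 against 3 can give, and 0.2 after Benjamini-Hochberg adjustment over 5 ratios).

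Polymerase alpha and primase form 1 complex that lays the first primer. Pola1, its catalytic polymerase subunit, was at 61.7, 53.0 and 62.7 CPM in TBK1-DKO, against 53.7, 52.8 and 46.1 in WT. TBK1-DKO 2 lay within the WT range, and Pola1 was not called (0.22, SE 0.08, adjusted p = 0.089 by edgeR) but was called without TBK1-DKO 2 (0.27, adjusted p = 0.010). Pola2, the regulatory subunit, was at 56.5, 60.4 and 55.6 CPM in TBK1-DKO, against 48.7, 53.2 and 50.3 in WT. It was not called (0.18, SE 0.06, adjusted p = 0.058 by edgeR), although the groups did not overlap. Prim1, the primase catalytic subunit, was at 34.6, 36.9 and 31.6 CPM in TBK1-DKO, against 28.5, 25.2 and 23.7 in WT. It rose by 0.41 (SE 0.09, adjusted p = 0.006 by edgeR), while Prim2, the larger primase subunit, rose by 0.24 (SE 0.07, adjusted p = 0.040). The Prim2 call was lost with any of 5 libraries left out: adjusted p = 0.11, 0.065, 0.074, 0.12 and 0.19 without TBK1-DKO 1, TBK1-DKO 2, TBK1-DKO 3, WT 2 and WT 3 (edgeR).

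Of the 6 genes of the clamp and its loader, Rfc5 alone rose, and the median log2 fold change was 0.17. The share called higher, 16.7%, was near the 13.7% over all genes tested, so nothing is read from this count. Pcna and Rfc4 were also called with the replicate block (adjusted p = 0.023 and 0.029 by edgeR) and with length and GC offsets. Pcna, the sliding clamp (chromosome 2, 132249162 to 132253314, minus strand), was at 293, 314 and 285 CPM in TBK1-DKO, against 280.4, 253 and 241 in WT. All TBK1-DKO libraries lay above WT, though TBK1-DKO 3 was close to WT 1, and Pcna was not called (0.20, SE 0.07, 95% interval 0.05 to 0.36, adjusted p = 0.063 by edgeR). Without WT 1 it was called (0.26, adjusted p = 0.021). RefSeq lists pseudogenes of Pcna in the genome, so its count is uncertain to the extent that reads align to both.

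Of the loader subunits, Rfc1, the large subunit specific to this loader, was at 116, 108 and 114 CPM in TBK1-DKO, against 126, 118 and 114 in WT. It had the only negative log2 fold change of the 42 genes (-0.08, SE 0.06, 95% interval -0.22 to 0.05) and its groups overlapped. Rfc5, a small subunit shared by all RFC-like loaders, was at 39.3, 40.8 and 37.3 CPM in TBK1-DKO, against 31.9, 30.6 and 30.04 in WT, and rose by 0.34 (SE 0.06, adjusted p = 0.003, edgeR quasi-likelihood test). The other 3 small subunits were not called. Rfc2 was at 96.7, 107 and 95.8 CPM against 82.5, 95.5 and 92.9 CPM in WT (0.14, SE 0.07, 95% interval -0.02 to 0.30). Rfc3 was at 21.2, 24.4 and 22.01 CPM against 20.9, 21.3 and 20.0 CPM in WT (0.12, SE 0.07, 95% interval -0.05 to 0.29). Rfc4 was at 22.9, 26.1 and 21.7 CPM against 22.9, 17.5 and 17.3 CPM in WT (0.29, SE 0.12, adjusted p = 0.095 by edgeR). Rfc2 groups only just separated and those of Rfc3 and Rfc4 overlapped, with WT 1 at the TBK1-DKO level of Rfc4. Without WT 1, Rfc4 was called (0.44, adjusted p = 0.011). The ratio of Rfc1 to the summed Rfc2 to Rfc5 was 0.613 ± 0.058 in TBK1-DKO and 0.742 ± 0.049 in WT, with no overlap (two-sided exact permutation p = 0.1, the smallest possible, and 0.125 after adjustment over 5 ratios).

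**Figure D3:**
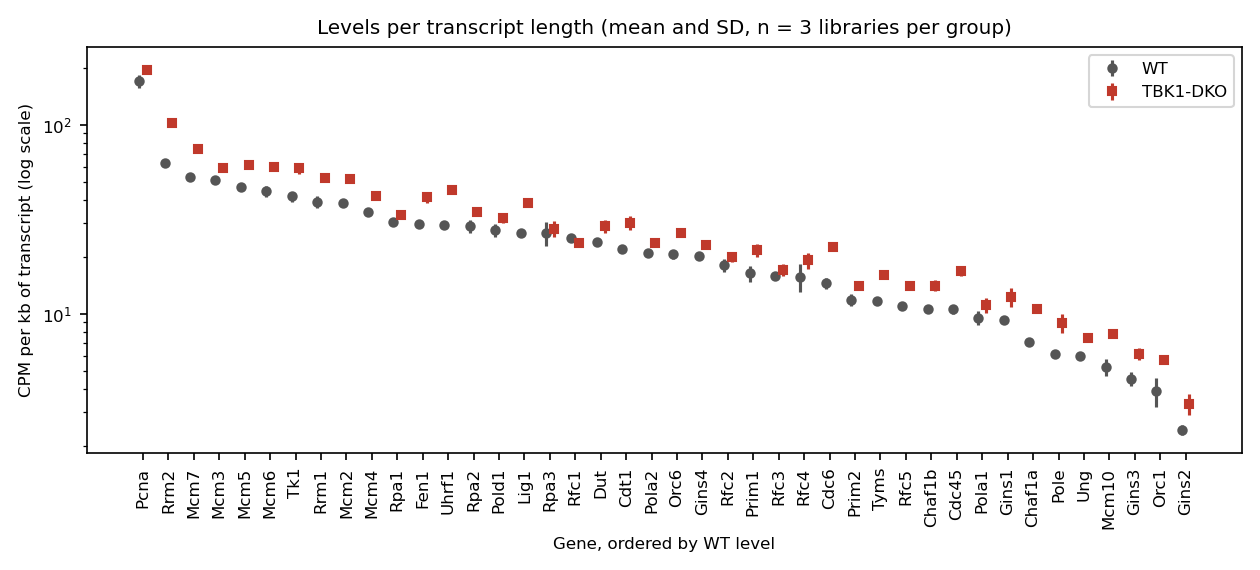
Level of each gene per kb of transcript (CPM per kb, log axis), with genes ordered by WT level. Points are means of the TBK1-DKO and WT groups and bars are SD (n = 3 libraries per group). Pcna, Rrm2 and Mcm7 are the highest and Gins2 and Orc1 the lowest, and most genes show TBK1-DKO points above WT points.

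Of the 5 genes for single-stranded DNA and lagging-strand work, 3 rose. Rpa1 to Rpa3 encode the 3 subunits of replication protein A, which coats single-stranded DNA and also serves repair. Rpa1 was at 166, 173 and 166 CPM in TBK1-DKO, against 150.5, 164 and 153 in WT. Rpa3 was at 18.2, 21.03 and 17.5 CPM in TBK1-DKO, against 20.7, 15.9 and 17.0 in WT. Rpa1 groups lay close without overlap and Rpa3 groups overlapped, and neither was called (0.11, SE 0.06, 95% interval -0.01 to 0.24, and 0.09, SE 0.11, 95% interval -0.16 to 0.33). Rpa2 rose by 0.26 (SE 0.07, adjusted p = 0.026 by edgeR), a call lost with any library but TBK1-DKO 3 left out. Its adjusted p was 0.054, 0.052, 0.067, 0.069 and 0.070 by edgeR without TBK1-DKO 1, TBK1-DKO 2, WT 1, WT 2 and WT 3, and its log2 fold change was 0.14 without both TBK1-DKO 2 and WT 1.

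The 2 enzymes that process and seal Okazaki fragments both rose. Lig1, the replicative DNA ligase (chromosome 7, 13277283 to 13311433, plus strand, 30 merged exons), was at 122, 128 and 118 CPM in TBK1-DKO, against 85.4, 87.1 and 81.2 in WT. It rose by 0.54 (SE 0.06, adjusted p = 0.0001 by edgeR). Fen1, the flap endonuclease, was at 95.2, 105 and 92.8 CPM in TBK1-DKO, against 66.8, 73.3 and 71.9 in WT. The groups of both genes were far apart, and Fen1 rose by 0.47 (SE 0.07). Exons of Tmem258 and Gm10143 overlap 84.2% of the Fen1 exon bases, so its level is uncertain.

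All 5 nucleotide synthesis genes rose, with a median log2 fold change of 0.45. Rrm2, the S phase small subunit of ribonucleotide reductase (chromosome 12, 24708241 to 24714146, plus strand, 9 merged exons), was at 222, 231 and 222 CPM in TBK1-DKO, against 136, 145 and 131 in WT. It was 1.64 times higher, the largest change of the 42 genes (log2 fold change 0.71, SE 0.06, adjusted p = 2.01e-05, edgeR quasi-likelihood test). Rrm1, the large catalytic subunit, was at 216, 206 and 201 CPM in TBK1-DKO, against 167, 156 and 145 in WT, with no overlap, and rose by 0.41 (SE 0.06). The ratio of Rrm2 to Rrm1 CPM was 1.09 ± 0.048 in TBK1-DKO and 0.883 ± 0.061 in WT (SD, n = 3), with no overlap (two-sided exact permutation p = 0.1, the smallest possible, and 0.125 after adjustment over 5 ratios). Rrm2b, the alternative small subunit used outside S phase, was at 38.9 ± 4.23 CPM in TBK1-DKO and 44.2 ± 3.39 in WT and was not called (-0.19, SE 0.09). The ratio of Rrm2 to Rrm2b was 5.85 ± 0.816 in TBK1-DKO and 3.12 ± 0.333 in WT (exact permutation p = 0.1, adjusted 0.125).

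The 3 genes of thymidylate supply and uracil exclusion also rose. Tk1, the S phase thymidine kinase, was at 79.99, 91.5 and 83.1 CPM in TBK1-DKO, against 56.6, 63.7 and 59.9 in WT, with no overlap. It rose by 0.50 (SE 0.07, adjusted p = 0.0006 by edgeR), whereas Tk2, the mitochondrial thymidine kinase outside the 42, fell by 0.23 on the log2 scale (SE 0.06, adjusted p = 0.026). The Tk2 call was lost without TBK1-DKO 1, TBK1-DKO 3, WT 2 or WT 3 (adjusted p = 0.083, 0.11, 0.085 and 0.098 by edgeR). The ratio of Tk1 to Tk2 was 1.06 ± 0.053 in TBK1-DKO and 0.639 ± 0.034 in WT (exact permutation p = 0.1, adjusted 0.125). Tyms, thymidylate synthase, rose by 0.45 (SE 0.06), and Dut, the dUTPase that keeps uracil out of DNA, rose by 0.28 (SE 0.07, adjusted p = 0.013 by edgeR). The Dut call was lost without WT 2 (adjusted p = 0.090). RefSeq lists a pseudogene of Tyms, so its count is uncertain to the same extent as that of Pcna.

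The 4 genes of chromatin assembly and uracil repair behind the fork all rose, with a median log2 fold change of 0.49. Uhrf1, which reads hemimethylated DNA and recruits the maintenance methyltransferase (chromosome 17, 56303321 to 56323486, plus strand), was at 165, 160.3 and 162 CPM in TBK1-DKO, against 103, 107 and 106 in WT. Its spread within groups was small and the gap wide, a log2 fold change of 0.62 (SE 0.05, adjusted p = 2.21e-05, edgeR quasi-likelihood test). Chaf1a, the large subunit of chromatin assembly factor 1, was at 57.6, 60.1 and 58.0 CPM in TBK1-DKO, against 39.8, 40.8 and 37.5 in WT. It rose by 0.57 (SE 0.06) and its partner Chaf1b by 0.41 (SE 0.07), although exons of Ubxn6 overlap 52.5% of the Chaf1a exon bases. Ung, the uracil DNA glycosylase that also acts in antibody class switching, rose by 0.32 (SE 0.08, adjusted p = 0.014 by edgeR), a call lost without TBK1-DKO 3 or WT 2 (adjusted p = 0.057 and 0.084).

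Levels between genes were compared per kb of the principal transcript. Pcna was highest at 196 ± 9.91 CPM per kb in TBK1-DKO and 170.2 ± 13.2 in WT, followed by Rrm2 at 103 ± 2.32 and 62.6 ± 3.26 and Mcm7 at 74.6 ± 3.01 and 53.0 ± 2.67 (SD, n = 3). Gins2 was lowest at 3.33 ± 0.419 and 2.43 ± 0.136 CPM per kb, with Orc1 next at 5.66 ± 0.156 and 3.88 ± 0.665. The place of Gins2 is uncertain, since its whole length was used although 67.3% of its exon bases overlap Gse1, where reads may have been left out. The most abundant of the 42 was thus not among the 31 called, and the next 2 were.

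The TBK1-DKO libraries did not contribute equally. TBK1-DKO 2 was the highest of its group in 34 of the 42 genes, with a median transcript length of 2283 bases, and the lowest in 5 with a median of 4751 bases: Mcm4, Pola1, Pole, Rfc1 and Uhrf1. The role of transcript length in these values was not tested. Without TBK1-DKO 2 and WT 1 together, 36 of the 42 were called higher and 0 lower, with a median of 0.35. The libraries kept were chosen from these data as the most alike of their groups, so p-values of that setting understate the spread. Calls over all genes also grew in that setting, to 3500 higher and 3397 lower of 14456, against 1978 and 1424 with all libraries. With each library left out in turn, between 25 and 32 of the 42 were called higher and 0 lower. Over all genes, 1336 to 2270 were then called higher and 972 to 2082 lower.

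Genes of the same pathways outside the 42 rose in part. Of 82 tested, 32 rose, 3 fell and 47 were not called, with a median log2 fold change of 0.17. Without WT 2 or WT 3, 20 and 21 rose. Between 1 and 7 fell with single libraries left out: 1 without TBK1-DKO 1, TBK1-DKO 3, WT 2 or WT 3, and 7 without TBK1-DKO 2. Of 16 other licensing and firing genes, 6 rose, among them Ticrr (0.87, SE 0.11), the origin firing factor treslin, Recql4 (0.48, SE 0.08), a helicase, Dbf4 (0.41, SE 0.07), the activator of the CDC7 kinase, and Gmnn (0.40, SE 0.07), the inhibitor of CDT1. Topbp1 (0.19, SE 0.07) and the MCM-binding gene Mcmbp (0.08, SE 0.06) were not called, and Topbp1 was called without TBK1-DKO 2 (0.24, adjusted p = 0.003 by edgeR).

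Of 23 other replisome and fork genes, edgeR called 13 higher and 0 lower. Chtf18 (0.75, SE 0.07), the large subunit of an alternative clamp loader, Clspn (0.73, SE 0.08) and Timeless (0.47, SE 0.06), which link the fork to the checkpoint, and Top2a (0.70, SE 0.08), the topoisomerase of dividing cells, had the smallest p. Top2b, the topoisomerase also used by non-dividing cells, was close to the threshold (-0.20, SE 0.07, adjusted p = 0.075). It was called lower by DESeq2 (-0.21, adjusted p = 0.0497), by edgeR with upper-quartile factors (adjusted p = 0.044), no filter (0.048) or thinned counts (0.048), and without TBK1-DKO 2 (-0.16, adjusted p = 0.043). Chtf8, a subunit of the same loader as Chtf18, was not called (-0.05, SE 0.06). Of 11 other chromatin replication genes, 6 rose, with the histone chaperone Asf1b (0.68, SE 0.06), the cohesin acetyltransferase Esco2 (0.64, SE 0.08), the maintenance methyltransferase Dnmt1 (0.45, SE 0.06) and the histone mRNA binding protein Slbp (0.23, SE 0.06) in front. The Slbp call was lost without TBK1-DKO 1, WT 2 or WT 3 (adjusted p = 0.055, 0.090 and 0.092 by edgeR). Rbbp4 (0.16, SE 0.06) and Ssrp1 (0.03, SE 0.06), general chromatin factors, were not called.

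In nucleotide metabolism outside the 42, most genes were not called. Of 14 other thymidylate and deoxynucleotide genes, 4 rose and Tk2 fell. The deaminase Dctd (0.69, SE 0.11), the kinase Dck (0.35, SE 0.06) and the folate enzyme Mthfd1 (0.22, SE 0.06) were among those that rose. Samhd1 (-0.06, SE 0.06), which degrades deoxynucleotides, and Nme2 (0.19, SE 0.09) were not called. Of 18 purine and pyrimidine synthesis genes, 3 rose (16.7%) and 2 fell (11.1%), shares near those of 13.7% and 9.9% over all genes tested, so nothing is read from them about this list. Cad (0.39, SE 0.08), which carries out the first steps of pyrimidine synthesis, Ctps (0.30, SE 0.06), a CTP synthase, and Impdh2 (0.24, SE 0.07), of guanine nucleotide synthesis, rose. Prps2 (-0.29, SE 0.06) and Ctps2 (-0.21, SE 0.06) fell, and Paics (0.05, SE 0.05) and Atic (-0.08, SE 0.05) of the purine route were not called. Besides Tk2, calls of 3 further genes named here were lost with single libraries left out. Mthfd1 was not called without TBK1-DKO 1, TBK1-DKO 3, WT 2 or WT 3 (adjusted p = 0.096, 0.059, 0.053 and 0.089), and Impdh2 without TBK1-DKO 1, WT 1, WT 2 or WT 3 (0.0505, 0.097, 0.11 and 0.15, edgeR). Ctps2 was not called without TBK1-DKO 1, TBK1-DKO 3, WT 1, WT 2 or WT 3 (adjusted p = 0.14, 0.11, 0.058, 0.067 and 0.11 by edgeR).

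**Figure D4:**
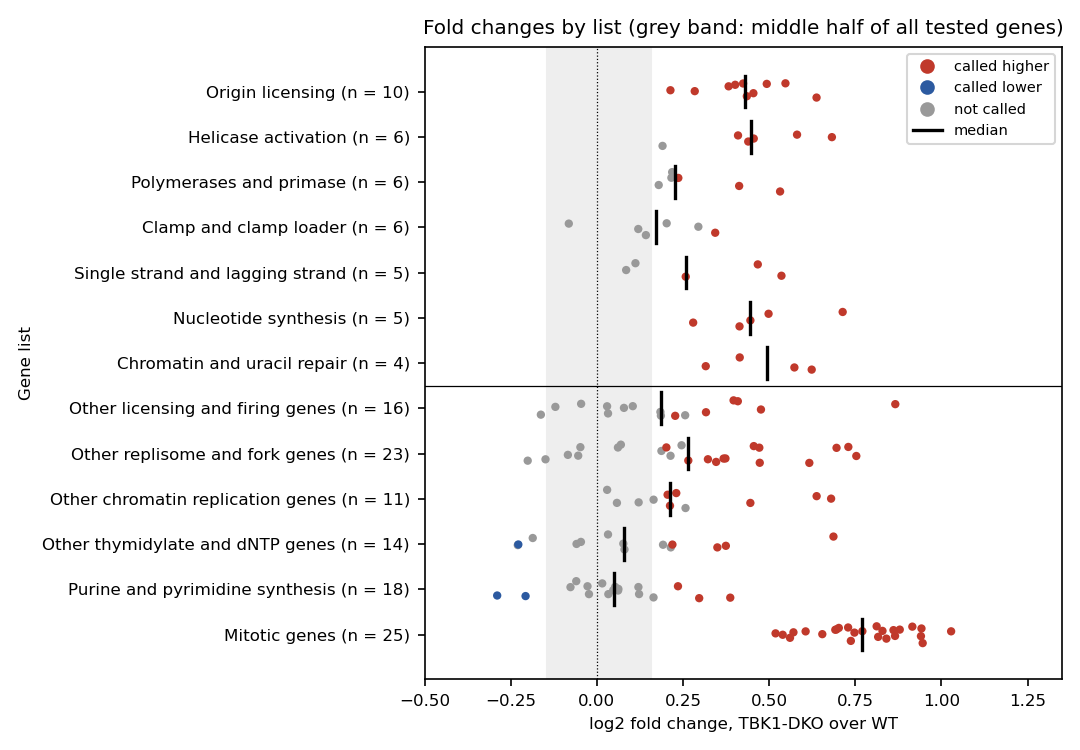
Log2 fold changes of single genes (points) in the replication genes, the other pathway lists and the mitotic list, red where called higher, blue where called lower and grey where not called. All mitotic points are red and lie between 0.52 and 1.03, while purine and pyrimidine synthesis genes are mostly grey and centred near 0.

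Mitotic genes, taken as a list of 25, rose in 25 of 25 with a median log2 fold change of 0.77 and a range of 0.52 to 1.03. The smallest p belonged to Ube2c (1.03, SE 0.06), Aurkb (0.88, SE 0.06), Cdc20 (0.94, SE 0.06) and Cdk1 (0.92, SE 0.06), which drive or end mitosis, and Top2a belongs to this list as well. Summed over the list, mitotic genes reached 3068 to 3511 CPM in TBK1-DKO and 1821 to 2129 CPM in WT, a ratio of means of 1.69. Summed over the 42 replication genes, the levels were 3659 to 3831 and 2843 to 2954 CPM, a ratio of means of 1.29. The summed replication genes over the summed mitotic genes gave ratios of 1.06, 1.25 and 1.08 in the TBK1-DKO libraries, against 1.37, 1.504 and 1.56 in the WT libraries. All TBK1-DKO ratios were thus below all WT ratios, with TBK1-DKO 2 nearest to WT. The largest part of the mitotic sum was Mki67. It was at 1316, 980 and 1259 CPM in TBK1-DKO 1, 2 and 3, against 798, 689 and 630 in WT 1, 2 and 3.

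Several marker lists of other cell types were also higher in TBK1-DKO. Of 15 erythroid markers, 15 rose, with Slc4a1 and Alas2 among the most abundant, and their sum was 3952 to 4163 CPM in TBK1-DKO and 2126 to 2356 in WT. Of 13 neutrophil precursor markers, 13 rose, with Ngp, Ltf and Camp the most abundant and sums of 4407 to 4856 and 1776 to 1944 CPM. Of 10 plasma cell markers, 10 rose, with Igj, Txndc5 and Xbp1 the most abundant and sums of 2361 to 2580 and 1470.4 to 1623 CPM. Further lists rose in part: 4 of 7 stem and progenitor markers (sums 129.0 to 143 and 102 to 111 CPM), 5 of 7 megakaryocyte markers (54.0 to 57.0 and 40.8 to 42.4 CPM) and 4 of 7 germinal centre B cell markers, of which 1 fell (134 to 143 and 126 to 129.7 CPM). Of other lists, 7 of 7 red pulp macrophage and 7 of 9 T cell markers fell. The same held for 5 of 6 NK cell and 4 of 8 B cell markers, and 0 markers of any of these lists rose. The part of these cells in the result was not tested, and in RNA from whole isolates fewer cells of a type and less RNA per cell cannot be told apart.

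Dendritic cell markers were present at high levels in both groups. Cd74, H2-Aa and H2-Ab1, of antigen presentation and shared with B cells, were the most abundant, and the 12 markers summed to 11985 to 13741 CPM in TBK1-DKO and 12451 to 13806 in WT. Of the 12, Esam (0.75, SE 0.09), Clec4a4 (0.37, SE 0.08) and Zbtb46 (0.35, SE 0.08) rose, and Clec9a (-0.74, SE 0.08), Xcr1 (-0.48, SE 0.06) and Itgax (-0.20, SE 0.06) fell. These 6 are named because they were called. Itgax was not called without TBK1-DKO 1, TBK1-DKO 3, WT 1 or WT 2 (adjusted p = 0.070, 0.095, 0.067 and 0.082), Zbtb46 without TBK1-DKO 1 or WT 3 (0.051 and 0.052), and Clec4a4 without WT 2 or WT 3 (0.064 and 0.061, edgeR). H2-Aa was called lower without TBK1-DKO 2 (-0.17, adjusted p = 0.023 by edgeR). The summed markers overlapped between groups through the 2 libraries that stand apart: they were 11985 and 12122 CPM in TBK1-DKO 1 and 3, 13741 in TBK1-DKO 2, 12451 in WT 1 and 13549 and 13806 in WT 2 and 3. In TBK1-DKO 1 and 3 against WT 2 and 3, Cd74 (-0.20, adjusted p = 8.6e-11), H2-Ab1 (-0.24, adjusted p = 1.62e-11) and H2-Aa (-0.18, adjusted p = 5.71e-09) were called lower by edgeR. The libraries kept were chosen from these data as the most alike of their groups, so these p-values understate the spread. Of 14456 genes tested that way, 3500 were called higher and 3397 lower. With all libraries, Cd74, H2-Ab1 and H2-Aa were not called (adjusted p = 0.72, 0.56 and 0.42 by edgeR).

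**Figure D5:**
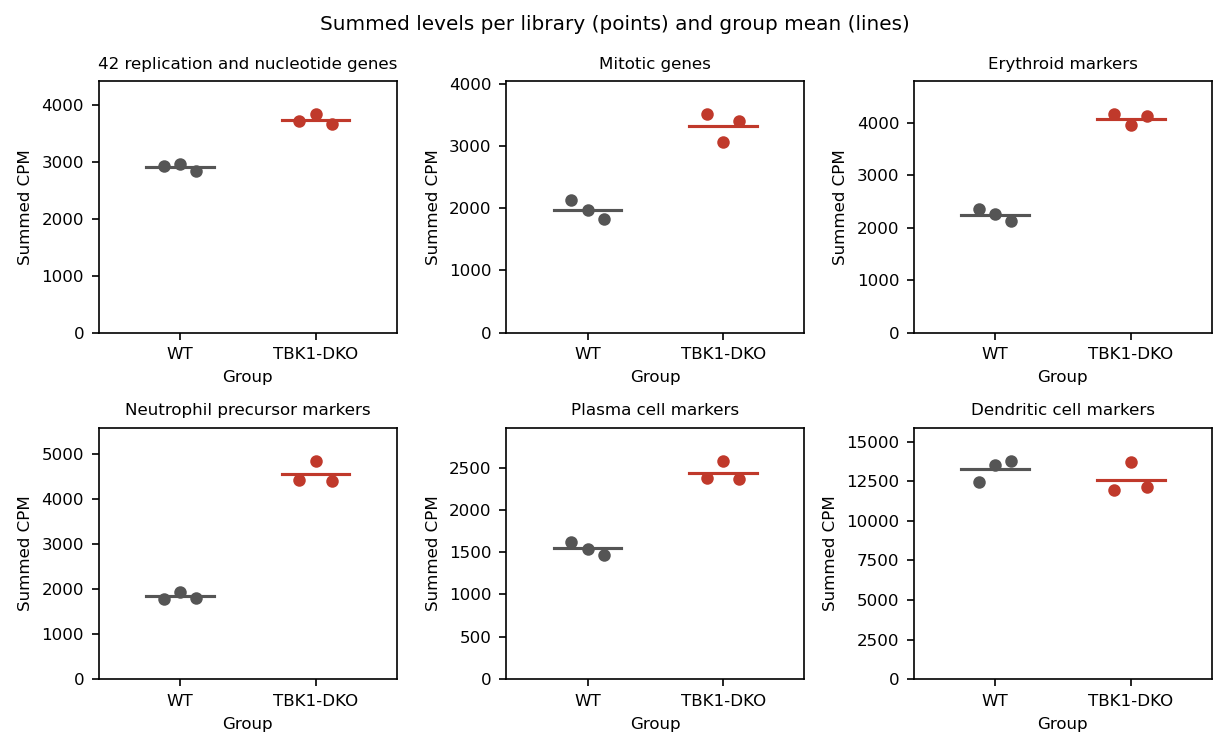
Summed CPM per library (points) and group means (lines) for the 42 replication genes, the mitotic genes and 4 marker lists, each panel on its own linear axis from 0. TBK1-DKO points lie above WT points in every panel except the dendritic cell markers, where the groups overlap through TBK1-DKO 2 and WT 1.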

How the data were processed

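Total RNA of freshly isolated splenic dendritic cells was sequenced as 3 TBK1-DKO and 3 WT libraries, grouped by title and genotype. The deposited tables hold unscaled read counts of single libraries by gene symbol. TopHat, TopHat2, HTSeq and DESeq2, with the mm10 build, are named per the submitters' processing notes. No source used here gives their versions, the annotation or the strand setting, so reads of overlapping or antisense genes could not be separated. Rows that name no gene held 8.20% to 10.7% of records and were kept out. The members and gene lists were chosen with earlier results of these data known.

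The counts were tested by edgeR 4.0.16 (R 4.3.3): filterByExpr with a minimum count of 10 kept 14388 genes, libraries were scaled by TMM, and the groups were compared by the robust quasi-likelihood F test, with Benjamini-Hochberg adjustment over all genes tested and calls at an adjusted p under 0.05. Standard errors were derived from the F statistic. Library values were given for the 2 most abundant and the 2 most changed genes of each role and every gene not called; other lists gave up to 4 genes with the smallest p and up to 2 abundant genes not called, and marker lists up to 3 abundant genes. Genes outside this rule are named with their counts, and the values of some genes it gives are not reported here. Gene positions and transcript lengths came from GENCODE M21, promoters from RefSeq (GRCm38.p6). Their start sites can differ, so a promoter stretch can lie partly or wholly within the gene positions given, as for Rrm2 and Cdc6. The test was run on simulated data first, where it recovered 70% of genes changed 1.5-fold and 96% of those changed 2-fold. Of its calls there, 6.41% were of unchanged genes. A gene not called may therefore still differ, above all where its change is smaller than 1.5-fold. Alternatives were DESeq2 1.42.0, limma-voom 3.58.1, other scaling factors, filters and thresholds, the replicate number as a block, libraries left out, TBK1-DKO counts thinned to WT depth, offsets for length and GC content (mgcv 1.9.3) and removal of 12 haemoglobin and immunoglobulin genes. Figures used matplotlib 3.10.9.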

Additional observations from a re-analysis of the deposited data

How the results depend on the processing

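The 42 replication genes had 31 called higher and 0 lower; over all alternatives between 25 and 37 were called higher and 0 lower, the lowest at an adjusted p under 0.01 and without WT 2. Mitotic genes kept 25 of 25 called higher in every alternative. Whether the replicate number pairs the samples is not known. Deviations of TBK1-DKO and WT libraries with the same number correlated at 0.182, 0.149 and -0.065. TBK1-DKO 1 and 2 correlated best with the WT library of their own number, and TBK1-DKO 3 with WT 1 (0.121). With 3 libraries a group, of which TBK1-DKO 2 and WT 1 stand apart, these values cannot decide it. With the replicate block, 37 of the 42 were called higher, while 2313 of all genes were called higher and 1773 lower. Of the 82 other pathway genes, 32 were called higher and 3 lower; 6 were called lower with the replicate block, 7 with length and GC offsets, 11 in TBK1-DKO 1 and 3 against WT 2 and 3, and 1 to 7 with single libraries left out, where 20 to 33 were called higher. At an adjusted p under 0.01, 21 were higher and 1 lower. Over all genes, TBK1-DKO 1 and 3 against WT 2 and 3 gave 3500 higher and 3397 lower, an adjusted p under 0.01 gave 1270 higher and 726 lower, and the offsets gave 2742 lower. Nme1, at a log2 fold change of 0.08 and not called, reversed to -0.082 in TBK1-DKO 1 and 3 against WT 2 and 3 (adjusted p = 0.045, edgeR). The libraries of that setting were chosen as the most alike of their groups, so its p-values understate the spread. The causes were not tested. Rfc1, Rfc2, Rfc3, Rpa1 and Rpa3 were called in none of 17 alternatives, and Prim2 in 9. The unequal depth of the groups left 31 of the 42 called higher after thinning. With 3 libraries a group, an exact permutation test of a ratio of genes cannot go below p = 0.1.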
